A study of Mus musculus with 12 samples.

Results

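The no-bud stage of mouse gastrulation (OB in the labels, embryos of E7.25 and E7.5, with no bud of the allantois) was compared with the early headfold stage (EHF, embryos of E7.5, in which the head folds first rise) for the histone marks H3K27ac and H3K4me1. The comparison used 4 of the 12 peak lists of the series, 1 list for each stage and mark, and took all of their peaks on chromosomes 1 to 19 and X. All embryos were of the C57BL/6 strain and carried no added allele or treatment per the labels. CoBATCH, in which an antibody directs the Tn5 transposase to marked chromatin of single cells, had been run on cells of dissociated embryos. The labels state a removal of extraembryonic tissue for the 4 earlier stages (Pre_PS, ES, MS and LS), but not for OB and EHF, and they give no number of embryos or cells behind a list. Each list pools the cells of a stage, so a mark present in few cells and a mark weak in many cells cannot be told apart. With 1 library a group there is no spread between replicates, and no difference between the stages below was tested; intervals are 95% Wilson intervals and cover counting error only.

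H3K27ac, acetylation of a lysine in the tail of histone H3, lies at active promoters and active enhancers. H3K4me1, methylation of another lysine of the same tail, lies at enhancers whether they are active or only primed, and flanks promoters. Between these stages the mouse embryo forms its neural plate, its heart progenitors, the node with the notochord, the first somite precursors and, in the yolk sac, the first blood.

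Peaks of both stages were first compared over promoter windows, the 300 bases from 250 before to 50 after a gene's start in the RefSeq promoter table (GRCm38.p6, the assembly that mm10 names). Of 370 genes in 19 lists of developmental, housekeeping and other markers, 248 had at least 1 window there, and 29 genes had a window with a peak at 1 of the stages alone in at least 1 mark. The 8 windows printed here are those of genes whose roles span the tissues of these stages. Capitals mark matches on either strand to 4 short motifs. These were AGATAA (the core of GATA factors), TGTTTAC (FOX factors), AGGTGT (T-box factors) and ACAAAG (SOX factors). No matches overlap in these windows.
Elf5: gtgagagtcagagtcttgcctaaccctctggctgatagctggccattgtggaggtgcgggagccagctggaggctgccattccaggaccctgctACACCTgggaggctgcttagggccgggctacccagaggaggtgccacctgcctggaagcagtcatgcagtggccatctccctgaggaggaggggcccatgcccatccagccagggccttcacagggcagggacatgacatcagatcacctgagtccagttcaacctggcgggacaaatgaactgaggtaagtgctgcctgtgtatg
Hnf4a: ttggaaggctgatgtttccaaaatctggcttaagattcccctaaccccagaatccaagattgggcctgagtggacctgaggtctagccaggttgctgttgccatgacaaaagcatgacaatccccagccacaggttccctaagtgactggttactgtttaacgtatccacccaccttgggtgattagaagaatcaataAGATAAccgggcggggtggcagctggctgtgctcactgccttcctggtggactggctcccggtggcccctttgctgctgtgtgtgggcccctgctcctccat
Apoa1: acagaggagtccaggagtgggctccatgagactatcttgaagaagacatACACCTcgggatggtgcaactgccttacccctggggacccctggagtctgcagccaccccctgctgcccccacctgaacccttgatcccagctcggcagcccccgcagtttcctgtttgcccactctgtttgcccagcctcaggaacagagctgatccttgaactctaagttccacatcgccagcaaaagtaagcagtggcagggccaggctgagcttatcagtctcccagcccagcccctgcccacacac
Etv2: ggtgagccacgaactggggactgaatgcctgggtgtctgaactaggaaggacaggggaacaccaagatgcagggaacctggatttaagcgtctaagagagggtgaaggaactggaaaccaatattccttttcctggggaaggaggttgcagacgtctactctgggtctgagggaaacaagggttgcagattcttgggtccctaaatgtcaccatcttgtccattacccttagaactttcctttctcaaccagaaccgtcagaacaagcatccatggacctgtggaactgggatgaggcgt
Klf1: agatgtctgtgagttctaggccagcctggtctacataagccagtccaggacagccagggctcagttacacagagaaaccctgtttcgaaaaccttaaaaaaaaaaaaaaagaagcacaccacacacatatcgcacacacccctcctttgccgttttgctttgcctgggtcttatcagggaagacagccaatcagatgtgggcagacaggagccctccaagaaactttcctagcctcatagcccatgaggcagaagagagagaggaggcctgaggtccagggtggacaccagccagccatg
Cyp26b1: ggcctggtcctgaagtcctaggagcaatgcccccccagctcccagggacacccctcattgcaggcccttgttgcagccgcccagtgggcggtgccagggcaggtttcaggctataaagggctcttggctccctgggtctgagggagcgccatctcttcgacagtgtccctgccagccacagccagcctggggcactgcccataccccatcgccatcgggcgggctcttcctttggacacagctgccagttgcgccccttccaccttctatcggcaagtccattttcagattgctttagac
Stra6: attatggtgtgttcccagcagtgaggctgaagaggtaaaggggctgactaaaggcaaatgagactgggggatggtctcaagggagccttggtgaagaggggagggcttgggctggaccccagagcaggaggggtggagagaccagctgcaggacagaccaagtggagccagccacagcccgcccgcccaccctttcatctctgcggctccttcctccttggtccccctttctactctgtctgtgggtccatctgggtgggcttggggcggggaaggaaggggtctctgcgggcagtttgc
Tnnt2: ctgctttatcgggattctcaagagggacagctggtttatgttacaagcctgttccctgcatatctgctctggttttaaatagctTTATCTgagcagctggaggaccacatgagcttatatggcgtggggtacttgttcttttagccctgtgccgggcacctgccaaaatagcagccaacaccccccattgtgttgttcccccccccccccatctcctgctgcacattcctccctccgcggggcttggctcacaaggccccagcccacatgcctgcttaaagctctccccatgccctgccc
The Elf5 window lies at chr2:103411848-103412147 on the plus strand, that of Hnf4a at chr2:163506607-163506906 (plus) and that of Apoa1 at chr9:46228380-46228679 (plus). The windows of Etv2 at chr7:30635803-30636102 and Cyp26b1 at chr6:84593761-84594060 are on the minus strand. Those of Klf1 at chr8:84901732-84902031, Stra6 at chr9:58134415-58134714 and Tnnt2 at chr1:135836084-135836383 are on the plus strand. The windows of Hnf4a and Tnnt2 each held 1 GATA match and those of Elf5 and Apoa1 each held 1 T-box match, while the other 4 held none of the motifs. Over all 32619 windows, 11.2% held the GATA motif, 3.67% the FOX motif, 13.8% the T-box motif and 18.7% the SOX motif. A match describes letters and not binding.

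Elf5, an ETS factor of trophoblast stem cells, had both marks at OB and neither at EHF. At OB its window lay under an H3K27ac peak of 445 bp with a fold of 5.04 and under an H3K4me1 peak of 421 bp with a fold of 7.23. At EHF the nearest H3K27ac peak was 68.3 kb away and the nearest H3K4me1 peak 68.2 kb away. The fold is the authors' enrichment over local background and describes each peak within its own list. Both marks also covered this window at ES and LS, whereas neither did at Pre_PS and MS. By −log10 q the OB peaks ranked at percentile 31.5 of the H3K27ac list and 55.5 of the H3K4me1 list.

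Of all 538 windows with H3K27ac at EHF alone, 131 (24.3%) had H3K4me1 at OB alone. Among the 16 such list genes, 5 had these states, with H3K4me1 and no H3K27ac at OB, but H3K27ac and no H3K4me1 at EHF. They were Apoa1, a lipoprotein component made by visceral endoderm, Hnf4a, a nuclear receptor of the same tissue, Etv2, the ETS factor of blood and endothelial progenitors, Nodal, the signalling ligand of the streak and node, and Pax6, a factor of the neural plate. Over the Etv2 window the H3K4me1 peak of OB was 2899 bp wide with a fold of 11.3, and the H3K27ac peak of EHF was 2823 bp wide with a fold of 8.55. The Apoa1 window carried an H3K4me1 peak of 2071 bp with a fold of 9.23 at OB and an H3K27ac peak of 2146 bp with a fold of 9.85 at EHF. For Hnf4a the folds were 6.83 and 4.97, and the nearest peak of the absent mark was 13.7 kb away at OB and 13.6 kb away at EHF. The windows of Hnf4a, Nodal and Pax6 had both marks at LS. At the other genes a peak of the absent mark lay close by: at Nodal an H3K4me1 peak of EHF began 0.008 kb from the window, at Etv2 0.432 kb, at Pax6 0.626 kb and at Apoa1 1.12 kb from it. An H3K27ac peak of OB lay 0.127 kb from the window at Nodal, 0.349 kb at Pax6, 0.457 kb at Etv2 and 1.125 kb at Apoa1.

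**Figure D1:**
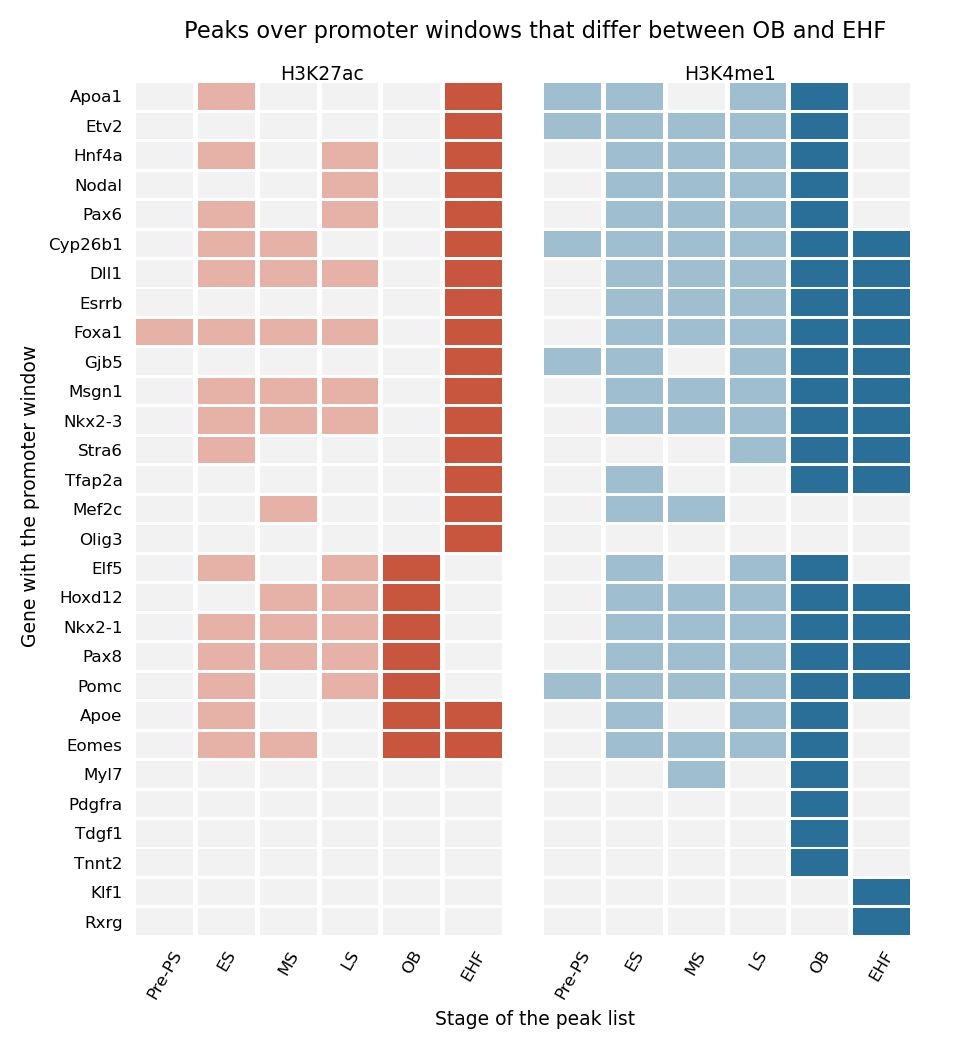
Presence of a peak over the promoter window of the 29 list genes whose window differed between OB and EHF. Rows are genes, columns are the 6 stages for H3K27ac (left) and H3K4me1 (right), a red or blue cell marks a peak and a grey cell none, and the 4 earlier stages are drawn paler; Apoa1, Etv2, Hnf4a, Nodal and Pax6 have H3K4me1 at OB and H3K27ac at EHF.

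In all, 16 list genes had a promoter peak of H3K27ac at EHF alone and 5 at OB alone, while for H3K4me1 2 had one at EHF alone and 12 at OB alone. Over all 32619 windows, a peak was present at EHF alone in 1.65% and at OB alone in 1.08% for H3K27ac, and in 0.727% and 2.34% for H3K4me1. The windows with H3K27ac at EHF alone included those of Cyp26b1, an enzyme that degrades retinoic acid, and Stra6, the membrane receptor through which vitamin A enters cells; both kept H3K4me1 at both stages. They also included Foxa1 of the endoderm, Msgn1 and Dll1 of the presomitic mesoderm, Olig3 of the neural tube, Tfap2a of surface ectoderm and neural crest, Mef2c of the heart, Nkx2-3 of the gut, Gjb5, a connexin gene of trophoblast, and Esrrb, a nuclear receptor of pluripotent cells. The windows of Foxa1, Dll1, Msgn1 and Nkx2-3 had carried H3K27ac at LS. In 8 of the 16 windows an OB peak lay within 1 kb, at 0.010 kb for Msgn1, 0.045 kb for Dll1, 0.1 kb for Mef2c, 0.192 kb for Olig3 and 0.278 kb for Foxa1, so the stages differed there in how far a nearby peak reached. Besides Elf5, H3K27ac was at OB alone at Pax8, Nkx2-1, Hoxd12 and Pomc. In 3 of these 5 windows an EHF peak lay close by, at 0.011 kb for Nkx2-1, 0.032 kb for Hoxd12 and 0.229 kb for Pax8.

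Klf1, the master factor of erythroid genes, and Rxrg, a retinoid X receptor, were the 2 list genes with promoter H3K4me1 at EHF alone. The Klf1 peak was 3542 bp wide with a fold of 17.6, which placed it at percentile 95.7 of the EHF list by −log10 q, whereas the Rxrg peak was at percentile 3.10. An OB peak of H3K4me1 lay 0.485 kb from the Klf1 window, and the nearest one to the Rxrg window was 14.0 kb away. H3K4me1 at OB alone was found at Tnnt2, the gene of cardiac troponin T, whose OB peak of 2110 bp had a fold of 3.45, Myl7, the gene of an atrial myosin light chain, Eomes, a T-box factor of the streak, Tdgf1, a Nodal co-receptor, and Pdgfra, a growth factor receptor of mesoderm. In 7 of the 12 windows with H3K4me1 at OB alone, an EHF peak of that mark lay within 1 kb. It lay at 0.173 kb for Tdgf1, 0.191 kb for Eomes, 0.418 kb for Myl7 and 0.486 kb for Pdgfra, but at 3.49 kb for Tnnt2. With the same number of peaks from both lists of a mark, the H3K4me1 peak at the Tnnt2 window of OB was no longer among those kept, and the states of the other 28 windows held.

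Windows that differed in one mark also differed often in the other. Of the 538 windows with H3K27ac at EHF alone, 131 (24.3%) had H3K4me1 at OB alone and 49 (9.11%) had it at EHF alone. Of the 352 windows with H3K27ac at OB alone, 83 (23.6%) had H3K4me1 at OB alone and 16 (4.55%) at EHF alone. Of the 17636 windows with H3K27ac at neither stage, 2.20% had H3K4me1 at OB alone and 0.686% had it at EHF alone. Both of these shares were higher at windows with H3K27ac at 1 stage alone. A window that differed in H3K27ac, in either direction, thus had H3K4me1 at OB alone in a similar share of cases, and H3K27ac at EHF and H3K4me1 at OB were the libraries of higher background; the part of that in these shares was not tested. With the same number of peaks the corresponding shares were 18.8% and 13.1% for windows with H3K27ac at EHF alone, and 17.4% and 8.23% for those with it at OB alone. In 245 of the 538 windows (45.5%) with H3K27ac at EHF alone, an OB peak lay within 1 kb, and for H3K4me1 at OB alone an EHF peak lay within 1 kb of 337 of 763 windows (44.2%).

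The libraries differed in depth in opposite directions for the marks. The H3K27ac lists held 34823 peaks over 36.4 Mb at OB and 33031 over 36.2 Mb at EHF, and the background that the weakest peaks imply was 1.26 times as high at EHF (0.289 against 0.230 fragments). The H3K4me1 lists held 46041 peaks over 51.0 Mb at OB and 35646 over 39.1 Mb at EHF, and that background was 1.37 times as high at OB (0.329 against 0.240). The smallest pileup of a peak was 3 fragments in each of the 4 lists, and 2.64% to 3.10% of peaks sat at that floor. Higher EHF than OB values in H3K27ac, and lower ones in H3K4me1, thus lie on the side of the library with the higher background. In H3K4me1 that library also held more peaks and covered Mb, whereas in H3K27ac it held slightly fewer. The part of depth in the results was not tested.

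Most marked regions were present at both stages. Merging the peaks of OB and EHF that touched gave 39629 H3K27ac regions. Of these, 27578 (69.6%, interval 69.1% to 70.0%) were shared, 6905 (17.4%, 17.1% to 17.8%) had a peak at OB alone and 5146 (13.0%, 12.7% to 13.3%) at EHF alone. For H3K4me1 there were 48720 regions, of which 31981 (65.6%) were shared, 13917 (28.6%, 28.2% to 29.0%) OB-only and 2822 (5.79%, 5.59% to 6.00%) EHF-only. The excess of OB-only regions went with the longer OB lists: with the same number of peaks by −log10 q from both stages, the OB-only and EHF-only shares were 14.6% and 14.6% for H3K27ac, and 14.8% and 13.1% for H3K4me1.

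**Figure D2:**
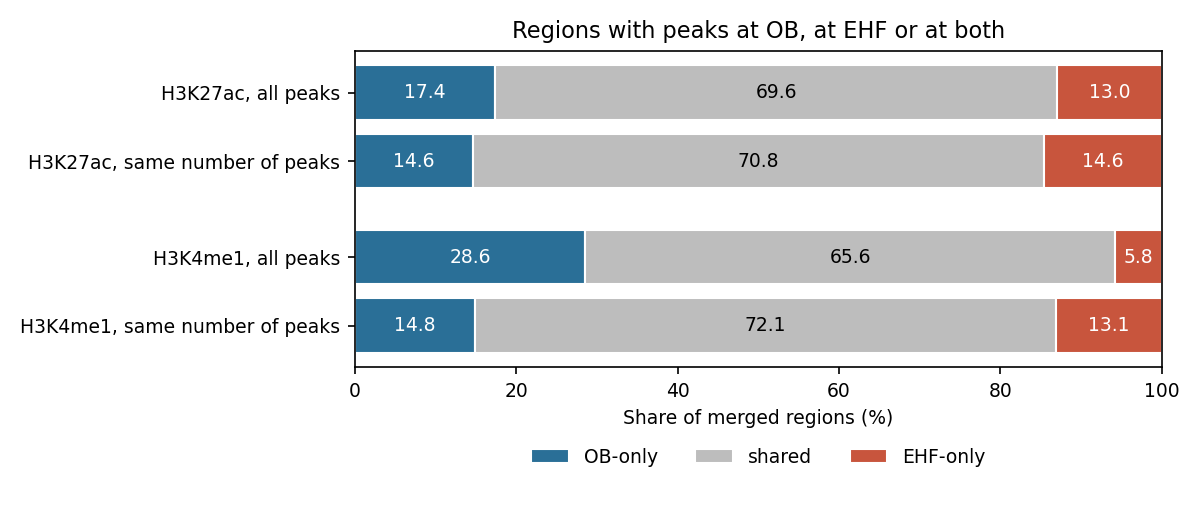
Share of merged regions with a peak at OB alone (blue), at both stages (grey) or at EHF alone (red), in percent, for each mark with all peaks and with the same number of peaks from both lists. With all peaks, H3K4me1 has 28.6% OB-only and 5.79% EHF-only regions, and with the same number of peaks 14.8% and 13.1%.

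By covered bases, the H3K27ac lists of OB and EHF had a Jaccard index (bases covered in both, divided by bases covered in at least 1) of 0.692, about that of LS and OB (0.689). The H3K4me1 index was 0.651, below that of LS and OB (0.704). Of the H3K27ac bases of OB, 81.5% were covered at EHF, and of those of EHF 82.0% at OB. For H3K4me1, 69.7% of the OB bases were covered at EHF, whereas 90.9% of the EHF bases were covered at OB. The index of both marks within a stage was 0.621 at OB and 0.683 at EHF.

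Regions of 1 stage were narrow, weak and far from gene ends in both directions and both marks. Their median width was 391 bp (OB-only) and 381 bp (EHF-only) for H3K27ac, and 422 bp and 367 bp for H3K4me1, against 1036 and 1041 bp for shared regions. The median fold of OB-only H3K27ac regions was 4.09 against 8.23 at shared regions in the OB list, and that of EHF-only regions 3.87 against 8.66 in the EHF list. For H3K4me1 the medians were 4.04 against 8.99 at OB and 3.83 against 7.74 at EHF. By −log10 q, 97.7% of OB-only and 98.7% of EHF-only H3K27ac regions ranked in the lower 50% of their own list, and for H3K4me1 95.2% and 99.3%. In none of the 4 lists did an exclusive region reach the top 10%.

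Few exclusive regions touched a promoter. Over 1 kb from each end of a protein-coding gene lay 92.5% (91.9% to 93.1%) of OB-only and 90.3% (89.5% to 91.1%) of EHF-only H3K27ac regions, and 93.0% and 93.1% for H3K4me1. Of shared regions, 51.5% and 56.5% lay that far. The median distance to a gene end was 17.7 kb for OB-only and 16.0 kb for EHF-only H3K27ac regions, against 1.30 kb for shared ones, and 19.1, 20.0 and 2.64 kb for H3K4me1. A promoter window was overlapped by 2.69% of OB-only, 4.62% of EHF-only and 39.0% of shared H3K27ac regions.

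The regions of either class had mostly been marked before. An H3K27ac peak at LS overlapped 3808 (55.1%) of the OB-only and 52.7% of the EHF-only regions, and 96.4% of the shared ones. Of the EHF-only H3K27ac regions, 69.4% had a peak in at least 1 earlier list and 1575 (30.6%, 29.4% to 31.9%) had none. For H3K4me1, 7552 (54.3%) of the OB-only and 45.1% of the EHF-only regions had a peak at LS, and 809 (28.7%) of the EHF-only regions had none in any earlier list. Restricted to peaks with −log10 q of 5 or more, 93 H3K27ac and 41 H3K4me1 regions were EHF-only and absent earlier.

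H3K27ac regions of 1 stage overlapped H3K4me1 to a like extent whichever stage they came from. Of the EHF-only regions, 68.7% had H3K4me1 at OB and 44.9% at EHF, and of the OB-only regions 69.8% and 41.1%. In both classes, 24.9% had H3K4me1 at neither stage. Among shared H3K27ac regions, 98.2% had H3K4me1 at OB and 93.4% at EHF. In the other direction the overlap was lower. H3K27ac was absent at both stages from 62.2% of OB-only and 68.6% of EHF-only H3K4me1 regions, against 8.46% of shared ones.

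**Figure D3:**
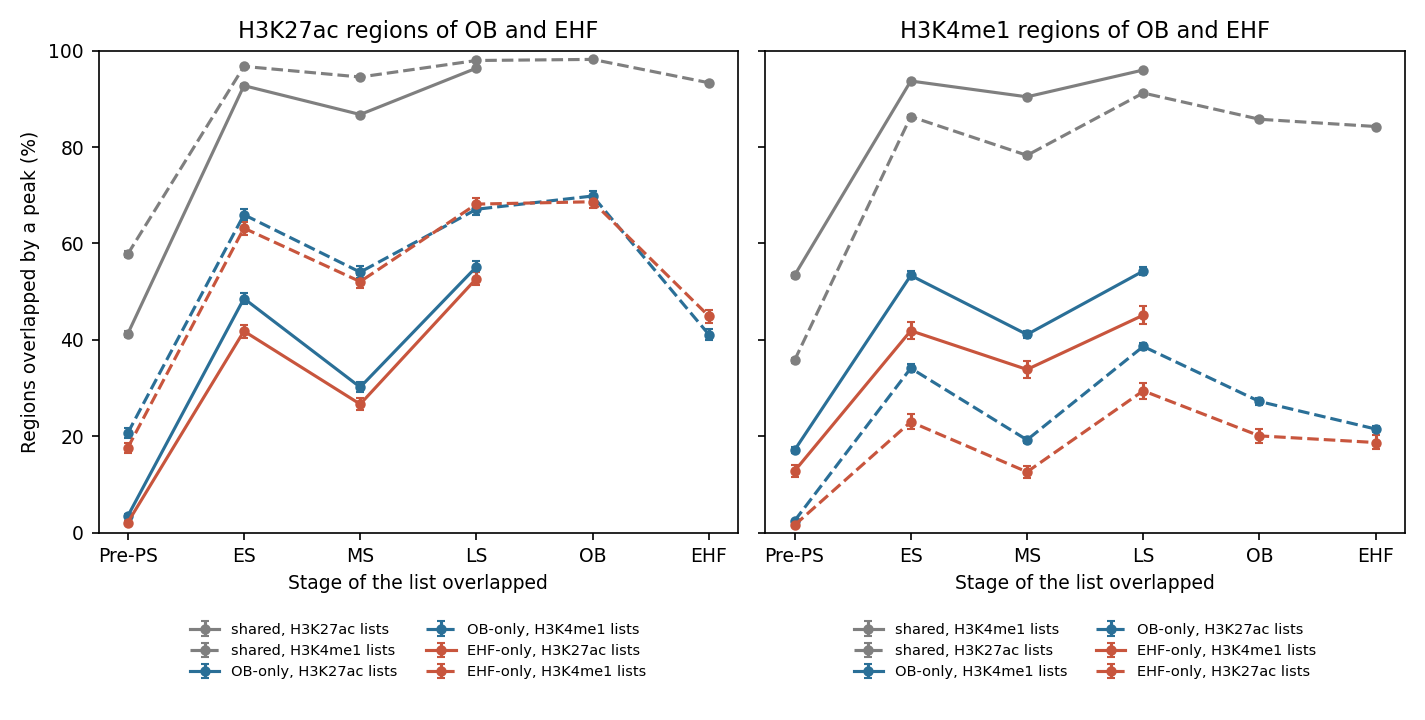
Share of regions, in percent, that a peak of another list overlaps, against the stage of that list, for H3K27ac regions (left) and H3K4me1 regions (right). Grey lines are shared regions, blue OB-only and red EHF-only; solid lines are lists of the same mark and broken lines of the other mark, with 95% Wilson intervals; for H3K27ac the blue and red lines run close together, at 55.1% and 52.7% for LS.

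The strongest OB-only H3K27ac regions with a peak at LS lay near Lgmn, a lysosomal protease gene, at chr12:102442347-102443042 (fold 10.7) and near Setd7, a lysine methyltransferase gene, at chr3:51521154-51521757 (fold 10.7). Others of the first 10 were near Cog1, Slc15a3 and Grik3. The strongest EHF-only H3K27ac regions absent from all earlier lists were weaker. The first was near Kalrn at chr16:34307456-34307882 (fold 7.68), 265 kb from the gene's end. The seventh, chr12:25119246-25119716, had Id2, a BMP-responsive inhibitor of basic helix-loop-helix factors, as the nearest gene at 23.2 kb with a fold of 6.38. The ninth, chr5:75596248-75596697, lay 21.3 kb from Kit, the receptor of germ cells and blood progenitors, with a fold of 6.28. Both carried H3K4me1 at OB and EHF.

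For H3K4me1, the strongest OB-only regions with a peak at LS were near Tcp11l2 (fold 11.5), Ska2 (11.4) and Tmem132c (11.2). The fifth was near Dlx4, a homeobox gene, at chr11:95165827-95166387 (fold 10.9). All of the first 10 had H3K27ac at EHF and 9 also had it at OB, the exception being the region near Tmx1. The first of the EHF-only regions absent earlier were near Lss (fold 6.35), Suds3 (6.15) and Atp6v0a4 (6.00), and 8 of the first 10 had no H3K27ac at either stage.

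Near the listed genes, the strongest EHF-only H3K27ac region belonged to Sox2, the SoxB1 factor of the neural plate, at chr3:34692087-34692567, 39.6 kb from the gene (fold 7.73). The next lay 2.44 kb from Six3, a forebrain factor (fold 7.53). Both had H3K4me1 at both stages, and an H3K27ac peak in 2 of the earlier lists for Sox2 and in 3 for Six3. The strongest OB-only region (fold 8.47) had Nr2f1 as its nearest gene, but 991 kb away. The next lay 63.3 kb from Pmepa1, a feedback inhibitor of TGF-beta signalling (fold 7.20). The one after it, on chromosome 6, lay 29.6 kb from Tead4, a factor of the trophoblast lineage (fold 6.56).

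Shared H3K27ac regions kept their width on the whole. The median log2 ratio of covered length, EHF over OB, was 0.04, with 796 regions at least 2-fold wider at EHF and 870 at least 2-fold narrower. In H3K4me1 the median was −0.10, with 375 wider and 2266 narrower. Among the largest gains in H3K27ac was a region 0.48 kb from Rxra, the retinoid X receptor, that covered 0.438 kb at OB and 3.50 kb at EHF. A region at Myh9, the gene of a non-muscle myosin heavy chain, went from 10.1 to 4.47 kb. In H3K4me1, a region 21.6 kb from Bmp7, a BMP ligand, went from 1.11 to 3.42 kb, and one at Atg2a, an autophagy gene, from 15.2 to 5.29 kb.

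Each base within 100 kb of a gene end was then given to the protein-coding gene with the nearest end, and a gene's share was its covered bp per covered Mb of the library. A gene counted as higher or lower at EHF where its share differed by at least 1.5-fold and its covered length by at least 1 kb in the same direction; genes with under 1 kb at both stages were not counted. For H3K27ac, 421 of 11428 genes were higher (3.68%) and 509 lower (4.45%), and the median log2 share ratio was 0.03. For H3K4me1, 114 of 12399 genes were higher (0.919%) and 1167 lower (9.41%), although the median log2 ratio was 0.13. The requirement of 1 kb of unscaled length counts against gains in the smaller EHF library. Without scaling, the H3K4me1 median was −0.25 and the counts were 68 higher and 2178 lower, and with the same number of peaks they were 260 and 806. H3K4me1 shares below are therefore to be read against the median of 0.13.

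Genes called in H3K27ac were also called in H3K4me1, lower as well as higher, more often than other genes. Of 406 genes higher in H3K27ac and counted in both marks, 81 (20.0%) were lower and 12 (2.96%) higher in H3K4me1. Of 490 genes lower in H3K27ac, 129 (26.3%) were lower and 8 (1.63%) higher in H3K4me1. Of 10145 genes without a call in H3K27ac, 644 (6.35%) were lower and 75 (0.739%) higher. As at promoters, a call of H3K27ac in either direction thus went with more H3K4me1 calls of both directions. The required difference of 1 kb makes a call harder at genes with little covered length, in both marks. The parts of this requirement and of library depth were not tested.

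The largest gain of H3K27ac was at Scube1, a gene of a secreted signalling protein, with 4.06 kb covered at OB and 9.94 kb at EHF. At LS it had 10.6 kb, so the OB value lay below those of LS and EHF. The same order, with LS closer to EHF than to OB, was seen at Arhgap23 (14.1, 9.39 and 14.6 kb at LS, OB and EHF), Hrh1, a histamine receptor gene (14.6, 9.18 and 14.2 kb), and Spred2, an inhibitor of the MAP kinase pathway (10.1, 5.84 and 10.4 kb). At MS, Scube1, Arhgap23 and Hrh1 had 4.54, 8.67 and 9.02 kb, near their OB values, and Spred2 had 8.60 kb. With territories of 50 kb the calls of Hrh1 and Spred2 were lost. The difference of share was then 83.2 in place of 140.1 bp per covered Mb at Hrh1, and 24.5 in place of 127.4 at Spred2. The calls of Arhgap23, Hrh1 and Spred2 were also lost with the upper 50% of each list, and that of Hrh1 without floor peaks. Slc6a6, the taurine transporter gene, went from 4.39 to 8.72 kb, with 6.43 kb at LS. Adam11 went from 6.70 to 10.8 kb, with 13.6 kb at LS. Myo7a (6.14 to 11.8 kb), Acsf3 (2.90 to 7.254 kb) and Slc39a11 (5.65 to 9.63 kb) were also among the first 10, but their direction turned when only the upper 50% of each list was used. At LS, Myo7a, Acsf3 and Slc39a11 had 9.02, 8.20 and 10.6 kb. With the upper 50% the call of Scube1 was lost as well, with a difference of share of 7.33 bp per covered Mb in place of 162.9.

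Among the losses of H3K27ac, Pgs1, a gene of phospholipid synthesis, had 13.3 kb at OB and 7.68 kb at EHF, and Cit, a kinase gene of cytokinesis, 13.0 and 8.03 kb. Dsg2, a desmosomal cadherin gene of epithelia and heart, went from 10.5 to 5.08 kb, and Flg, Tchp and Alpk3, a kinase gene of heart muscle, went from 5.89 to 1.46, 6.80 to 2.66 and 5.86 to 1.80 kb. At Pgs1, Cit and Dsg2 the LS values (13.7, 12.7 and 12.2 kb) were near those of OB, whereas at Flg, Tchp and Alpk3 they lay between the stages (3.32, 4.90 and 3.75 kb). Myh9 (23.8 to 14.7 kb) and Slc4a8 (7.80 to 2.98 kb) turned direction with the upper 50% of each list. The calls of Pgs1 and Cit were lost with the same number of peaks. With the upper 50% of each list the difference of share was −4.44 bp per covered Mb in place of −147.8 at Dsg2, −1.67 in place of −152.6 at Pgs1, and 0 at Flg. The calls of Tchp and Alpk3 held under the alternatives run.

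H3K4me1 gained most at Macrod1 (10.6 kb at OB, 14.4 kb at EHF) and Gnai2, the gene of an inhibitory G protein subunit (11.4 and 13.8 kb). Alpl, the tissue-nonspecific alkaline phosphatase gene that also marks primordial germ cells, had 8.48 and 10.6 kb, and Myh10, a non-muscle myosin gene, 4.81 and 7.22 kb. Srgap3 went from 2.59 to 5.25 kb. The losses were longer. Ptp4a3, a phosphatase gene, went from 21.6 to 8.23 kb with 21.7 kb at LS, Man1c1 from 25.3 to 12.7 kb and Ube2v1 from 28.4 to 13.9 kb. Elmo2, a gene of cell migration, went from 10.7 to 3.24 kb and was also lower in H3K27ac (5.24 to 1.90 kb), while Pla2g4b went from 10.3 to 2.67 kb and was higher in H3K27ac (2.74 to 4.68 kb). The H3K4me1 call of Gnai2 was lost with the same number of peaks. Without scaling, those of Macrod1, Gnai2 and Alpl were lost. With the upper 50% of each list, the H3K4me1 calls of Alpl, Myh10, Srgap3, Ube2v1 and Pla2g4b were lost. The difference of share was then 21.6 in place of 90.5 bp per covered Mb at Myh10, and 0 at Pla2g4b. With −log10 q of 5 or more, those of Alpl, Myh10 and Ube2v1 were lost.

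Of the 370 listed genes, 295 were counted in H3K27ac, with 12 higher and 6 lower, and 310 in H3K4me1, with 5 higher and 17 lower. For H3K27ac these are 4.07% and 2.03% of the listed genes, against 3.68% and 4.45% of all genes. For H3K4me1 they are 1.61% and 5.48%, against 0.919% and 9.41%. With the same number of peaks, the calls of Eya1 in both marks, of Hoxb6 in H3K27ac, and of Tnnt2, Dppa3, Hnf4a, Ikzf1, Tal1 and Ins2 in H3K4me1 were lost. The medians of the developmental lists ran from −0.09 (epiblast and pluripotency) to 0.12 (lateral plate and allantois) in H3K27ac. In H3K4me1 they ran from 0.12 (blood and endothelium) to 0.33 (Hox clusters), and the extraembryonic lists are given further below.

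**Figure D4:**
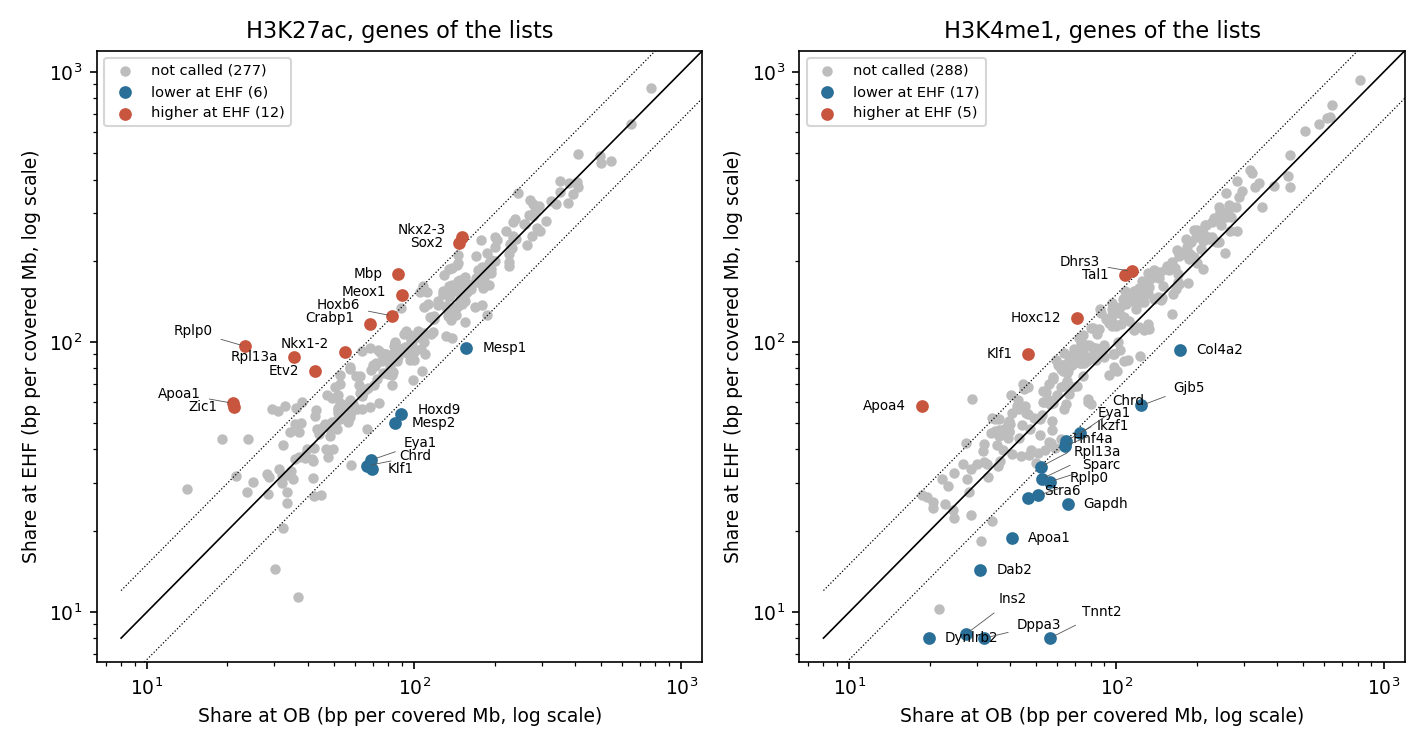
Share of each listed gene (covered bp per covered Mb, log scales) at OB against EHF for H3K27ac (left) and H3K4me1 (right); the full line marks equal shares and the dotted lines 1.5-fold. Red genes are higher and blue genes lower at EHF, grey genes are not called, and the points at the lower edge, among them Tnnt2, had no covered base at EHF.

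In the neural plate lists, Sox2 and Zic1 were called, both in H3K27ac. Sox2 covered 5.38 kb of H3K27ac at OB and 8.43 kb at EHF, from a share of 148 to 233 bp per covered Mb, with 8.70 kb at LS. Its territory held 6 EHF-only and 2 OB-only regions, and its H3K4me1 covered 10.2 kb at both stages. The Sox2 call was lost with the upper 50% of each list and with −log10 q of 5 or more. Its difference of share was then 85.23 and 75.15 bp per covered Mb, against 84.95 with all peaks. Zic1, a zinc finger factor of the neural plate, went from 0.769 to 2.09 kb, but its direction turned with −log10 q of 5 or more. Neurog2, a proneural gene, had 3.94 and 5.83 kb, and was not called. Of the 22 anterior neural genes, none was called in either mark. Otx1 had 7.42 kb at OB and 8.64 kb at EHF, Lhx2 9.64 and 8.30 kb, Six3 7.34 and 8.17 kb, and Wnt1, the midbrain ligand, 5.66 and 4.29 kb.

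In the heart and paraxial mesoderm lists, the neighbouring Mesp genes had less H3K27ac at EHF. Mesp1, the factor that starts cardiac mesoderm, covered 5.70 kb at OB and 3.43 kb at EHF (4.50 kb at LS), and Mesp2, a somite segmentation factor, 3.09 and 1.82 kb. Meox1, a factor of the somite precursors, was higher, with 3.29 and 5.40 kb. Its call was lost with the upper 50% of each list and with −log10 q of 5 or more. The Meox1 difference of share was then 39.6 and 34.8 bp per covered Mb, in place of 58.7. Foxc2, a forkhead factor of paraxial mesoderm, had 3.24 and 4.84 kb, and was just below 1.5-fold. Of the 24 heart genes, only Mesp1 was called in H3K27ac. Nkx2-5, the homeobox factor of heart progenitors, had 6.53 and 4.95 kb, Tbx5 had 4.92 and 5.84 kb, and Gata5 had 4.69 and 6.43 kb. In H3K4me1, only Tnnt2 was called, with 2.87 kb at OB and none at EHF, and this call was lost with the same number of peaks (a difference of share of −11.01 in place of −56.28 bp per covered Mb).

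The node and notochord list was mixed. Chrd, the BMP antagonist of the node, was lower in both marks, from 2.43 to 1.26 kb in H3K27ac and from 3.73 to 1.79 kb in H3K4me1, although both directions turned with the upper 50% of each list. Shh, the ligand of notochord and floor plate, had 5.30 and 7.58 kb of H3K27ac, without a call. Nkx1-2, a factor of the caudal epiblast that is also in the streak list, was higher, with 2.00 and 3.32 kb. Dynlrb2, a dynein gene of cilia, had 1.01 kb of H3K4me1 at OB and none at EHF. Other streak genes had like coverage at both stages. T (brachyury) covered 0.934 kb of H3K27ac at both stages, Mixl1 1.34 and 1.36 kb, and Eomes 3.56 and 3.49 kb. Nkx2-3, of the gut list, went from 5.49 to 8.90 kb of H3K27ac, with a turn of direction at −log10 q of 5 or more.

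Blood genes moved in different ways by mark. Klf1 had less H3K27ac at EHF (2.52 to 1.22 kb) and more H3K4me1 (2.38 to 3.54 kb). Tal1, the factor that specifies blood, had more H3K4me1, with 5.49 and 6.91 kb. Etv2 had more H3K27ac, with 1.55 and 2.82 kb, and less H3K4me1, with 2.90 and 1.66 kb, the latter without a call. Ikzf1, a lymphoid factor, was lower in H3K4me1 (3.26 to 1.61 kb), with a turn of direction at −log10 q of 5 or more. The embryonic globin genes Hbb-bh1, Hba-x and Hbb-y had no covered base in either mark at either stage.

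In the retinoic acid pathway, Crabp1, a binding protein of the ligand, was higher in H3K27ac (2.49 to 4.22 kb). Its call was lost with the upper 50% of each list and with −log10 q of 5 or more. The Crabp1 difference of share was then 2.59 and 19.6 bp per covered Mb, in place of 48.3. Dhrs3, a retinaldehyde reductase gene, was higher in H3K4me1 (5.82 to 7.13 kb) and had 4.90 and 6.77 kb of H3K27ac. Aldh1a2, the gene of the main ligand-synthesizing enzyme, had 3.56 and 3.60 kb of H3K27ac, and Cyp26a1, of a degrading enzyme, 3.55 and 3.52 kb. Stra6 was lower in H3K4me1 (2.37 to 1.03 kb), but with the same number of peaks its direction turned. Dppa3, a germ cell gene, had 1.63 kb of H3K4me1 at OB and none at EHF, and Eya1, a cofactor gene of the placodes, was lower in both marks, though its direction turned in both with territories of 50 kb.

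The Hox genes were covered at both stages, and 3 calls were made among them. Of 39 Hox genes, 38 were counted in H3K27ac, where 28 had a larger share at EHF and 10 a smaller one; Hoxb6 was higher (3.01 to 4.53 kb) and Hoxd9 lower (3.26 to 1.96 kb). Summed over a cluster, the H3K27ac share at EHF was 1.18 times that at OB for Hoxb, 1.13 times for Hoxa, 1.02 times for Hoxc and 0.981 times for Hoxd. Covered length followed the same order, from 29.9 to 35.1 kb in Hoxb and from 23.0 to 22.5 kb in Hoxd. Within Hoxa the larger gains were at Hoxa7 (1.20 to 2.09 kb) and Hoxa9 (2.09 to 2.92 kb), while Hoxa5 had 1.26 and 1.21 kb.

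In H3K4me1 the direction of the Hox clusters depended on the scaling. The share at EHF was 1.29 times that at OB for Hoxb, 1.25 for Hoxc, 1.22 for Hoxd and 1.18 for Hoxa, whereas the covered length was shorter at EHF in each, from 41.2 to 40.9 kb in Hoxb and from 39.9 to 36.0 kb in Hoxa. Hoxc12 alone was called, with 3.63 kb at OB and 4.79 kb at EHF. Of 81 H3K27ac regions nearest to Hox genes, 2 (2.47%) were OB-only and 6 (7.41%) EHF-only, against 17.4% and 13.0% of all H3K27ac regions.

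**Figure D5:**
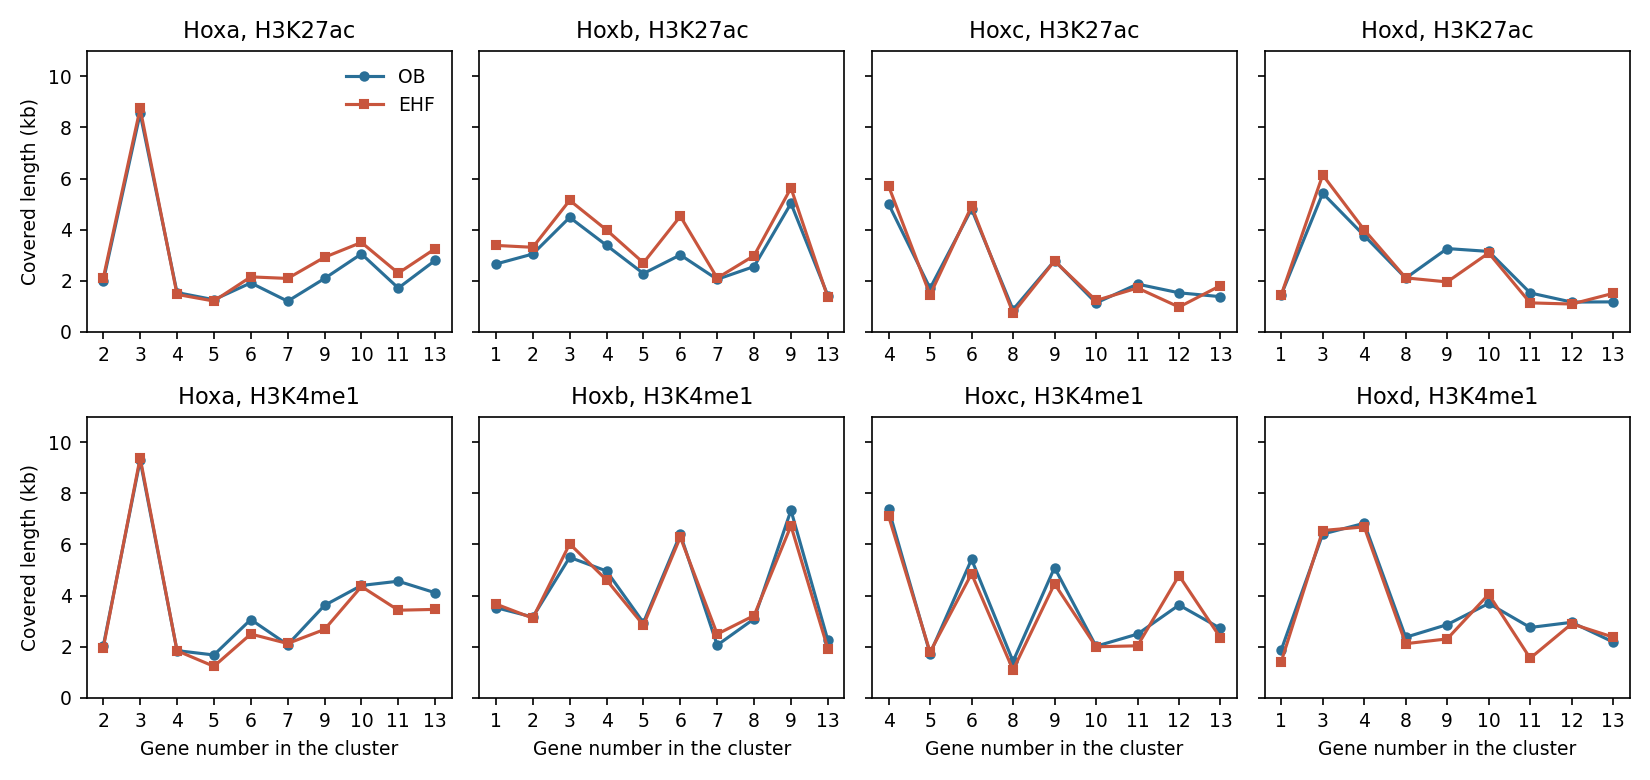
Covered length in kb of the territory of each Hox gene shown at OB (blue circles) and EHF (red squares), by gene number in the 4 clusters, for H3K27ac (top) and H3K4me1 (bottom). The stages run close together in most genes, with Hoxb6 in H3K27ac at 3.01 and 4.53 kb.

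Markers of extraembryonic cells were checked, since their removal is not stated for these stages. Of 18 visceral endoderm markers, Ttr, Afp, Cubn, Spink1, Rhox5, Fgb and Slc2a2 had no covered base in either mark at either stage, and the covered length of the list was 16.7 kb at OB and 17.7 kb at EHF in H3K27ac, and 23.0 and 17.9 kb in H3K4me1. Apoa1 was called higher in H3K27ac and lower in H3K4me1, Hnf4a and Dab2 lower and Apoa4 higher in H3K4me1. The Dab2 direction turned with the upper 50% of each list. The list's median log2 ratio in H3K4me1 was −0.39 over 9 counted genes, against 0.13 for all genes. Of 19 trophoblast markers, Prl3d1, Rhox6, Rhox9 and Tpbpa were at 0 throughout and Elf5 was at 0 at EHF, with 54.0 and 52.9 kb over the list in H3K27ac and 74.2 and 58.3 kb in H3K4me1. The 13 parietal endoderm markers had 40.6 and 40.3 kb in H3K27ac, and 56.4 and 38.6 kb in H3K4me1, where Sparc and Col4a2, basement membrane genes, were lower. The part of such cells in the promoter changes of Elf5, Apoa1, Hnf4a and Gjb5 was not tested.

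Genes of the reference lists were called as well. Of 14 housekeeping genes, Rplp0 (0.846 to 3.49 kb) and Rpl13a (1.30 to 3.18 kb), ribosomal protein genes, were higher in H3K27ac, and both were lower in H3K4me1 together with Gapdh (3.35 to 0.98 kb). At LS, Rplp0 had 3.39 kb of H3K27ac, near the EHF value. Of 18 genes of adult tissues, Mbp, the myelin basic protein gene, was higher in H3K27ac (3.18 to 6.46 kb) and Ins2 lower in H3K4me1 (1.40 to 0.324 kb). The Mbp call was lost with the upper 50% of each list and with −log10 q of 5 or more. Its difference of share was then 2.80 and 9.22 bp per covered Mb, in place of 91.1.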

How the data were processed

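CoBATCH libraries of H3K27ac and H3K4me1 from embryos of 6 stages were deposited as broad peak lists, 1 library for each stage and mark. Per the submitters' processing notes, Bowtie2, Picard, MACS2 and deepTools were run on mm10; versions and settings were not given in the sources used here. For each peak the authors deposited a fold enrichment (a ratio), −log10 of the p-value and −log10 of the q-value; the deposited score was not used. No read counts were used, so depth was read from the weakest peaks, whose fold and −log10 p were solved for a whole pileup of up to 20 and a local background within a tolerance of 0.001. The values of a peak are the authors'.

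Peaks of OB and EHF that overlapped or touched were merged within a mark. Distances were taken to the ends of 21627 protein-coding genes of the RefSeq table (GRCm38.p6), and far means over 1 kb. Each gene's territory reached 100 kb. A call needed 1 kb covered at a stage, a 1.5-fold difference of share and a 1 kb difference of length. The named genes were the 10 with the largest difference in share in each direction among called genes whose direction held at equal peak numbers, and the called members of the lists; other members are given as uncalled examples, some of them chosen after their values were seen. Some genes that the rule names are not reported here. The members, lists and comparisons were chosen with earlier results of these data known. With 1 library a group no test between stages was made. The region, gene and depth steps were checked on simulated data. The alternatives were 11, plus 2 added after seeing the data. Python 3.11.15, numpy 2.4.6, pandas 2.3.3, scipy 1.17.1 and matplotlib 3.10.9 were used.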

Additional observations from a re-analysis of the deposited data

How the results depend on the processing

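No paired analysis was possible because each group held 1 library, and no replicate could be left out for the same reason. Directions of 27 of 36 H3K27ac and 32 of 42 H3K4me1 genes named or called turned under none of the alternatives run, and the promoter window counts stayed within 1.5 times. Over the named or called genes and alternatives, 524 gene values kept direction and call and 140 kept direction but were no longer called, while 10 differences became 0, at Flg in H3K27ac and at Tnnt2, Stra6, Apoa4, Dppa3, Dynlrb2 and Pla2g4b in H3K4me1. The alternatives scaling the 1 kb of length by library, and those for promoter windows and shared widths, were chosen after seeing the data. The causes of the differences were not tested, beyond the smaller lists that stricter thresholds leave.

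The OB-only and EHF-only percentages of H3K27ac regions were 14.58 and 14.63 with the same number of peaks, 12.39 and 7.947 with the upper 50% of each list, 15.96 and 7.848 with −log10 q of 5 or more, and 16.65 and 12.16 without peaks at the floor. For H3K4me1 they were 14.84 and 13.09 with the same number, 24.89 and 2.185 with the upper 50%, and 21.21 and 4.831 with −log10 q of 5 or more. The EHF-only percentage was 4.939 without floor peaks, and the OB-only one 29.05 with 20% of a region covered. The far percentages of OB-only and EHF-only H3K27ac regions were 75.52 and 62.36 (upper 50%), 85.74 and 80.62 (−log10 q of 5) and 77.02 and 74.0 (over 5 kb). For H3K4me1 they were 92.0 and 91.52 (same number), 78.1 and 71.54 (upper 50%), 87.93 and 86.48 (−log10 q of 5) and 78.1 and 78.63 (over 5 kb). OB-only regions with an LS peak numbered 2278 for H3K27ac with the upper 50% and 4237 for H3K4me1 with the same number. EHF-only regions in no earlier list numbered 8 and 93 for H3K27ac with the upper 50% and −log10 q of 5, and 3 and 41 for H3K4me1, with 524 without floor peaks. Wider and narrower regions numbered 220 and 157 (upper 50%) and 348 and 315 (−log10 q of 5) for H3K27ac, and 71 and 633, and 141 and 1128, for H3K4me1.

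Genes higher and lower in H3K27ac numbered 1618 and 1797 with no minimum of length and 178 and 268 at 2-fold. In H3K4me1 they numbered 1303 and 2750 with no minimum, 62 and 588 at 2-fold, and 68 and 2178 unscaled, with 260 higher for the same number of peaks and 276 higher with scaled length. Listed genes higher and lower in H3K27ac numbered 38 and 19 (upper 50%), 19 and 14 (−log10 q of 5), 28 and 21 (no minimum) and 5 and 1 (2-fold). In H3K4me1 they numbered 16 and 27 (no minimum), 1 and 8 (2-fold), 1 and 38 (unscaled) and 9 and 9 (scaled length).

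The following differences of share, EHF minus OB in bp per covered Mb, had the opposite sign. For H3K27ac with the upper 50% they were −2.10 at Acsf3, 1.87 at Chrd, 34.3 at Eya1, 20.04 at Myh9, −1.14 at Myo7a, −27.4 at Nkx2-3, −4.18 at Slc39a11, 1.77 at Slc4a8 and −4.87 at Zic1. With −log10 q of 5 they were −30.6 at Acsf3, −7.14 at Nkx2-3, 5.09 at Slc4a8 and −8.38 at Zic1, and with territories of 50 kb 10.2 at Eya1. For H3K4me1 the difference was 18.6 at Stra6 with the same number of peaks and 1.39 at Eya1 with 50 kb. With the upper 50% they were 10.8 at Chrd, −3.55 at Cpz, 5.92 at Dab2, 8.81 at Eya1, 9.98 at Gjb5, −85.6 at Hid1, 9.35 at Ikzf1 and 9.25 at Kcnab2. With −log10 q of 5 they were −7.59 at Adcy5, −11.8 at Cpz, 4.28 at Ikzf1 and 0.203 at Kcnab2. The H3K4me1 median log2 ratio of all genes was −0.25 without scaling. Regions present at 1 stage were mostly weak, so their absence at the other stage cannot be told apart from a mark too weak to be called at this depth.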
